A study of Danio rerio with 16 samples.

Results

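The 7 genes described here are immediate early genes of the zebrafish: fosab, fosl1a, junba, junbb, atf3, egr1 and ier2a. They were taken by symbol from the 21301 genes of the deposited matrix, and all 7 were found. Immediate early genes are transcribed within minutes of a signal from mediators that are already in the cell, so no new protein is needed. Growth factors such as FGF, acting through the MAP kinase ERK and the serum response factor, are classical inducers, and so are wounding, stress and the enzymatic taking apart of tissue. Most of the 7 encode transcription factors: Fos and Jun proteins pair as the dimer AP-1, which also accepts Atf3, while Egr1 binds DNA through zinc fingers and Ier2 is a short-lived nuclear protein that lies downstream of FGF in zebrafish left-right patterning.

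The study dissociated zebrafish tails, cut behind the youngest somite of embryos with 10 to 12 somites, for droplet single-cell RNA sequencing, in order to compare tails in which signals needed for tailbud cell movement had been blocked. There were 4 groups with 4 libraries each, namely DMH1 (BMP inhibition, 31485 cells), SU5402 (FGF inhibition, 33722 cells), notum-1 (Wnt inhibition, 30822 cells) and WT (34632 cells), together 130661 cells. DMH1 is a small-molecule inhibitor of BMP type I receptors, SU5402 one of FGF receptor kinases, and Notum a secreted enzyme that inactivates Wnt proteins; doses, exposure times and the delivery of notum-1 are not stated in the sources at hand. Each library pooled 10 tails, or 12 for notum-1, and all cells of every group passed through papain at 20 U/mL for 15 minutes at 29 °C. No strain or vehicle-treated control is named in the labels, and no cell sort is described. Cells carry the 25 class names of the authors, of which 18 held at least 30 cells in every library and were compared. In 26 of 35 checks, over 12 classes, a marker was higher in its class than in other WT cells. The other 9 were lower in their class. In PSM these were msgn1 (912 against 1867 CPM in other cells) and tbx16 (190 against 339 CPM). tbxta was lower in PZ 1 (131 against 264 CPM) and msgn1 in NMP (1544 against 1795 CPM). In intermediate mesoderm lhx1a was lower (3.76 against 9.74 CPM) and pax8 was at 0. In Kupffer's vesicle, which held 40 WT cells, dnah9, sox17 and sox32 were at 0. Libraries are named as in the cell table: DMH0, DMH2, DMH3 and DMH4, replicates 1 to 4 of SU5402, WNT_DJ1, WNT_DJ2, WNT_MG1 and WNT_MG2 of notum-1, and DJ1, DJ2, MG1 and MG2 of WT, and values are listed in that order.

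Totals per library were 46922073 to 76488460 UMIs (unique transcripts) for DMH1, 12398958 to 70365340 for SU5402, 33086139 to 62492196 for notum-1 and 26415698 to 50512590 for WT. Levels are given as CPM, the UMIs of a gene scaled to the UMI total of its library or class, and 3 UMIs in a whole library were worth 0.0392 to 0.242 CPM. SU5402 replicates 1 and 2 stood apart from replicates 3 and 4, with the smallest totals of the series (12398958 and 23542233), and calls resting on them are given with and without them. The median mitochondrial share per cell was 3.56% to 4.89% for DMH1, 3.62% to 6.55% for SU5402, 1.16% to 1.45% for notum-1 and 1.52% to 2.38% for WT. The hsp70 genes, stress-induced chaperones, summed to 15.5 to 40.6 CPM in DMH1, 17.8 to 34.3 CPM in SU5402, 417 to 1334 CPM in notum-1 and 967 to 1738 CPM in WT. Macrophage and neutrophil markers (4 of 5 in the matrix) summed to 4.17 to 7.40, 2.34 to 5.36, 5.65 to 22.4 and 1.55 to 2.22 CPM in DMH1, SU5402, notum-1 and WT. In the same order, epidermis and enveloping layer (EVL) classes made up 18.5% to 22.8%, 13.6% to 21.6%, 8.56% to 19.3% and 14.1% to 22.3% of cells. EVL alone held 1.33%, 0.933%, 0.365% and 0.356% of all UMIs. The part of these differences in the results was not tested. Of 128533 barcodes 2107 occurred in more than 1 library, at most 48 in any pair of libraries (0.514% of the smaller).

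Summed over all cells, junbb, which encodes a JunB protein, was lower than in WT under all 3 treatments. Its level was 22.2, 19.5, 21.3 and 25.3 CPM in the DMH1 libraries, 8.15, 9.18, 18.3 and 22.9 CPM in the SU5402 libraries and 18.8, 20.7, 12.4 and 17.2 CPM in the notum-1 libraries, against 65.4, 52.0, 54.8 and 38.0 CPM in WT. No treated library reached the lowest WT library. With edgeR, the log2 fold change after TMM scaling was -1.40 for DMH1 (SE 0.30, adjusted p = 0.00172), -2.01 for SU5402 (SE 0.31, adjusted p = 9.96e-05) and -1.20 for notum-1 (SE 0.30, adjusted p = 0.00599). The 3 comparisons use the same WT libraries and so are not independent. All 3 calls held under every alternative that was run, including each library left out; without SU5402 replicates 1 and 2 the SU5402 value was -1.47 (adjusted p = 9.17e-05 by edgeR). In sums over a tail, fewer cells of a type and less RNA per cell cannot be told apart.

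ier2a differed between the inhibitors. It stood at 112, 91.2, 119 and 89.6 CPM in the DMH1 libraries, 27.5, 34.8, 26 and 17.9 CPM in the SU5402 libraries and 45.0, 31.3, 47.0 and 41.5 CPM in the notum-1 libraries, against 77.1, 78.1, 77.8 and 68.6 CPM in WT. Every DMH1 library lay above every WT library, and every SU5402 and notum-1 library below. Under SU5402 ier2a fell, by 1.76 on the log2 scale (SE 0.16, adjusted p = 1.02e-06 by edgeR), and this call held under every alternative. Under notum-1 it was lower by a log2 fold change of -0.47 (SE 0.16, adjusted p = 0.0277 by edgeR); the call was lost without notum-1 library WNT_DJ2 (adjusted p = 0.0758) or WNT_MG2 (0.0651), or without WT library DJ2 (0.0569) or MG1 (0.0621). It was also lost with only the DJ libraries (adjusted p = 0.135 by edgeR), with only the MG libraries (0.169) and under 1 limit on genes and mitochondrial share for all cells (0.234). The DMH1 value was 0.31 (SE 0.16) with an adjusted p of 0.125 by edgeR. Set against each other, DMH1 exceeded SU5402 by a log2 fold change of 2.06 (SE 0.16, adjusted p = 8.52e-06 by edgeR), which ranked 1 by p among the 16399 genes tested.

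Of the Fos genes, fosl1a was called in all cells, under DMH1, and fosab was not. fosab, the counterpart of mammalian c-Fos, stood at 53.4, 42.8, 47.0 and 52.1 CPM in the DMH1 libraries, at 2.58, 2.59, 69.4 and 50.2 CPM in the SU5402 libraries and 27.4, 7.30, 13.1 and 3.96 CPM in the notum-1 libraries, against 71.5, 91.5, 63.9 and 61.0 CPM in WT. DMH1 and notum-1 libraries all lay below WT, whereas SU5402 replicate 3 overlapped it. None of the edgeR log2 fold changes passed, at -0.70 (SE 0.85, adjusted p = 0.53) for DMH1, -1.30 (SE 0.86, adjusted p = 0.24) for SU5402 and -2.04 (SE 0.88, adjusted p = 0.082) for notum-1. Over the alternatives run, the SU5402 value ranged from -2.925 to -0.376. The dispersion is estimated over all groups and so includes the split between the SU5402 replicates: without SU5402 replicates 1 and 2 the notum-1 value was -2.08 (SE 0.44, adjusted p = 0.00234 by edgeR), and the DMH1 value -0.71 (adjusted p = 0.183).

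fosl1a, the counterpart of Fra-1, reached 12.4, 10.1, 9.19 and 9.43 CPM in the DMH1 libraries, 2.66, 2.89, 15.6 and 9.41 CPM in the SU5402 libraries and 2.40, 0.848, 2.54 and 0.665 CPM in the notum-1 libraries, against 2.79, 4.16, 2.46 and 2.16 CPM in WT. The DMH1 libraries were all above WT. It rose under DMH1, with a log2 fold change of 1.68 (SE 0.55, adjusted p = 0.0223 by edgeR), but the call was lost without WT library DJ1 (adjusted p = 0.0565), MG1 (0.0557) or MG2 (0.0597), and held at 1.67 without SU5402 replicates 1 and 2 (adjusted p = 0.0017). For SU5402 the log2 fold change was 1.29 (SE 0.55, adjusted p = 0.0689 by edgeR), and without replicates 1 and 2 it was 2.00 (SE 0.41, adjusted p = 0.00156). For notum-1 it was -0.40 (SE 0.56, adjusted p = 0.59 by edgeR). EVL, a class too small to compare, held 22.4% of the fosl1a UMIs and 1.33% of all UMIs in DMH1. In WT it held 3.62% and 0.356%. The pooled fosl1a level in EVL was 172 CPM in DMH1 (271 cells) and 30.9 CPM in WT (123 cells). The part of EVL in the all-cell rise was not tested.

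Of junba, atf3 and egr1, atf3 was called in all cells, under SU5402. junba, the second JunB gene, stood at 23.4, 17.7, 14.7 and 15.4 CPM in the DMH1 libraries, 1.85, 1.32, 25.5 and 18.2 CPM in the SU5402 libraries and 7.06, 1.31, 3.23 and 0.453 CPM in the notum-1 libraries, against 22.3, 24.2, 15.1 and 12.5 CPM in WT. The notum-1 libraries were all below WT, and the other groups overlapped it; the edgeR log2 fold changes were -0.20 (adjusted p = 0.865), -0.74 (adjusted p = 0.496) and -2.16 (SE 0.87, adjusted p = 0.064) for DMH1, SU5402 and notum-1. Without SU5402 replicates 1 and 2 the notum-1 value was -2.20 (adjusted p = 0.00837 by edgeR). atf3, a stress-induced partner of Jun proteins, stood at 10.0, 6.69, 4.50 and 4.97 CPM in the DMH1 libraries, 2.82, 3.02, 9.09 and 6.07 CPM in the SU5402 libraries and 5.62, 2.68, 4.81 and 3.29 CPM in the notum-1 libraries, against 14.9, 9.62, 9.37 and 8.06 CPM in WT. Only the notum-1 libraries were all below WT. It fell under SU5402, by 1.13 on the log2 scale (SE 0.39, adjusted p = 0.0288 by edgeR), a call that was lost without SU5402 replicate 1 (adjusted p = 0.0622) or 2 (0.0646), without WT library DJ1 (0.0791), and without both replicates (-0.58, adjusted p = 0.201). The atf3 call was also lost with only the 8 libraries compared (adjusted p = 0.0506 by edgeR) and under 1 limit on genes and mitochondrial share for all cells (0.138). The edgeR log2 fold change of atf3 was -0.83 (adjusted p = 0.0943) for DMH1 and -0.94 (adjusted p = 0.0673) for notum-1; without SU5402 replicates 1 and 2 both passed, at -0.84 (adjusted p = 0.0249) and -0.98 (adjusted p = 0.0135).

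egr1, the zinc finger factor, was scarce. It stood at 2.75, 2.56, 2.55 and 3.12 CPM in the DMH1 libraries, 0.645, 1.06, 4.72 and 2.83 CPM in the SU5402 libraries and 1.46, 0.617, 2.62 and 0.967 CPM in the notum-1 libraries, against 1.54, 1.92, 1.62 and 1.21 CPM in WT. The DMH1 libraries were all above WT, yet no comparison passed: the edgeR log2 fold changes were 0.65 (adjusted p = 0.308), 0.47 (adjusted p = 0.472) and 0.26 (adjusted p = 0.708) for DMH1, SU5402 and notum-1. Without SU5402 replicates 1 and 2 the SU5402 value passed, at 1.14 (SE 0.39, adjusted p = 0.0281 by edgeR).

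**Figure D1:**
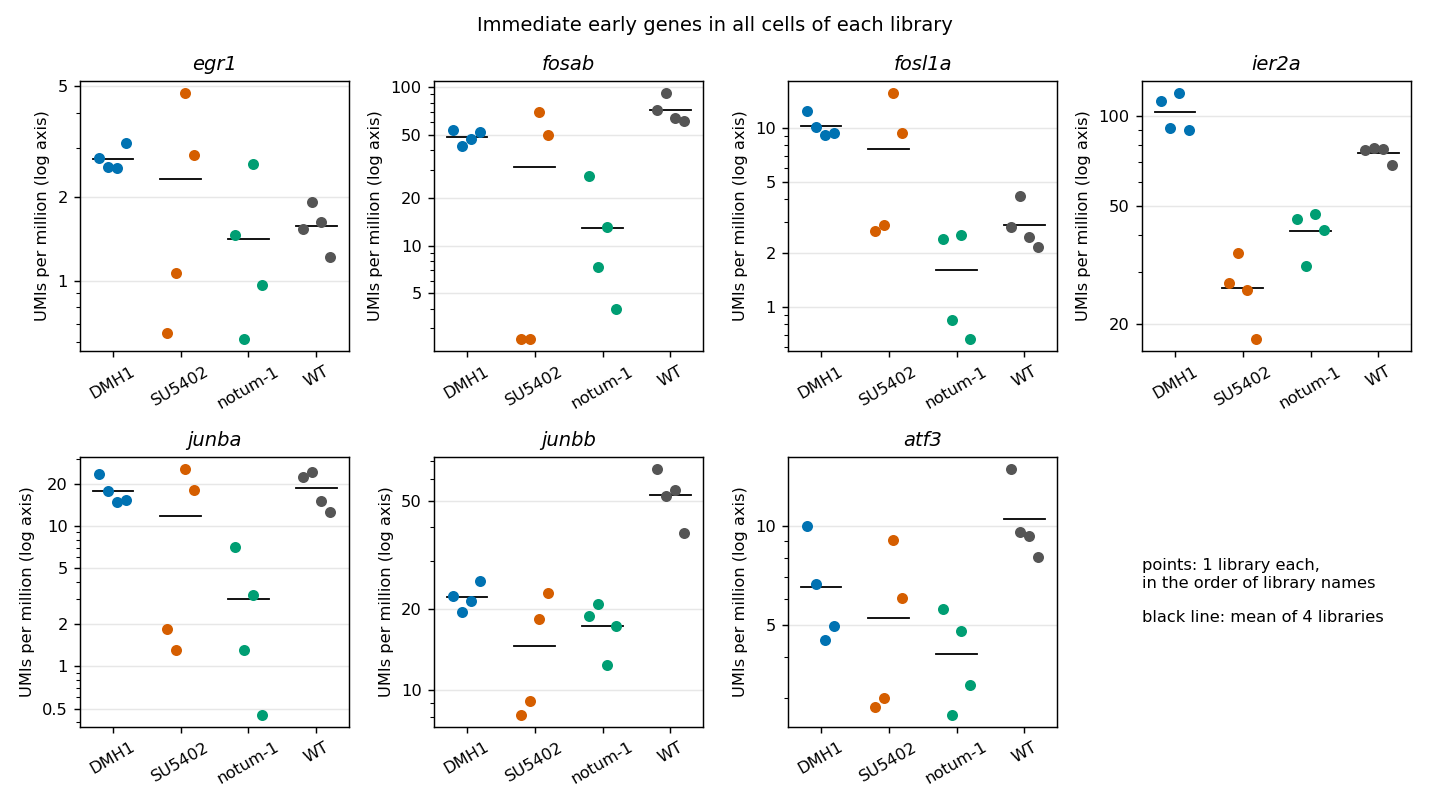
Level of each of the 7 genes in each of the 16 libraries, in CPM on a log axis, with the groups DMH1, SU5402, notum-1 and WT from left to right; points are libraries and black lines the mean of a group. In SU5402, fosab, junba, fosl1a, egr1, junbb and atf3 fall into a low pair (replicates 1 and 2) and a high pair. All 4 SU5402 libraries of ier2a, at 17.9 to 34.8 CPM, lie under the WT range of 68.6 to 78.1 CPM. Those of junbb, at 8.15 to 22.9 CPM, also lie under the WT range of 38.0 to 65.4 CPM.

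In all cells, 2 of 7 genes were called under DMH1 (1 higher, 1 lower), where 42.4% of the 16399 tested genes were called (22.1% higher, 20.3% lower). Under SU5402 it was 3 of 7, all lower, where 42.6% of genes were called (23% higher, 19.6% lower), and under notum-1 2 of 7, both lower, where 38% were called (20.9% higher, 17.1% lower). These shares are near the background of a series in which a large part of all genes differed between each treated group and WT. Mitochondrial share, hsp70 level and cell limits also differed between these groups, and their part in these shares was not tested. In CPM without TMM scaling, libraries of the compared groups did not overlap for 5, 2 and 5 of 7 genes under DMH1, SU5402 and notum-1, where 57.1%, 40.1% and 44.9% of all genes did not. Between DMH1 and SU5402, 1 of 7 genes was called where 1.19% of genes were (0.537% higher, 0.652% lower), and 1 of 7 did not overlap where 12.6% of genes did not. The share of genes called between these groups varied widely between fits. Genes called numbered 195 here, 4696 without SU5402 replicate 4, 1174 with DESeq2, 733 without WNT_DJ2 and 60 under uniform cell limits. The median log2 fold change over the 7 genes was -0.20, -1.13 and -0.94 for DMH1, SU5402 and notum-1, beside 0.06, 0.11 and 0.03 over all genes, and 0.54 beside -0.02 for DMH1 against SU5402. Without TMM scaling the median of all genes itself moved to 0.20, 0.34, -0.37 and -0.11 in these 4 comparisons. The split of calls then became 2 higher and 1 lower for DMH1 and 1 higher and 3 lower for SU5402. All genes called then numbered 6978 and 7275. Without SU5402 replicates 1 and 2 the members called were 1 higher and 2 lower for DMH1, 2 higher and 2 lower for SU5402, and 0 higher and 5 lower for notum-1. All genes called in these fits numbered 7982, 7129 and 7372.

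In WT tails the levels differed strongly by class, as a description of these libraries. The epidermis held more of the AP-1 transcripts than its share of RNA: classes epidermis 1, 3 and 4 had 14.3% of all WT UMIs but 64.3% of those of junba, 59.2% of fosl1a, 46.0% of junbb, 37.7% of atf3 and 28.8% of fosab. Their shares of egr1 (15.5%) and ier2a (15.3%) were close to their share of all UMIs. junba was highest in epidermis 1, with 133 ± 23.8 CPM (SD, n = 4), above every library of the next class, epidermis 3 (61.0 ± 13), and lowest in posterior adaxial cells (1.63 CPM). junbb averaged 176 ± 23.5, 169 ± 47.4 and 160 ± 35.6 CPM in epidermis 1, 4 and 3, which overlapped each other and stood clear of posterior notochord (97.7 ± 18), and was lowest in PZ 2 (14.7 CPM). atf3 was highest in epidermis 1 (41.7 ± 5.73 CPM), clear of epidermis 3 (22.1 ± 5.65), and lowest in presomitic mesoderm, PSM (3.27 CPM). fosl1a averaged 14.3 CPM in epidermis 1 and 0.671 CPM in the NMP class, with a clear step between epidermis 4 (9.65 CPM) and the hand2 class of the lateral plate mesoderm (3.39 CPM).

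fosab and ier2a had other orders. fosab was high in epidermis 1 (157 ± 16.6 CPM), dorsal neuronal cells (138 ± 23.3), epidermis 3 and 4 and intermediate mesoderm (126 ± 19.2), which overlapped; the only step between neighbours lay between the NMP class (49.2 ± 5.67) and PZ 1 (32 ± 3.60), with PSM last at 13.4 CPM. ier2a peaked in anterior notochord, at 174 ± 24.6 CPM, clear of posterior adaxial cells (111 ± 3.83); the order below that was one of overlapping neighbours down to PSM (38.7 ± 3.31) and differentiated neuronal cells (35.9). egr1 ran from 6.09 ± 3.01 CPM in anterior adaxial cells, the precursors of slow muscle, to 0.308 CPM in posterior notochord, and each neighbour in its order overlapped the next. Of 17 steps between neighbouring classes, 1 was clear for fosab, fosl1a, ier2a, junbb and atf3, 2 for junba and 0 for egr1. Among the 7 classes too small to compare, the pooled WT level of fosab was highest in Kupffer's vesicle, at 260 CPM (95% Poisson interval 194 to 341, counting error only, 40 cells), and that of junba in EVL, at 142 CPM (112 to 177, 123 cells).

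**Figure D2:**
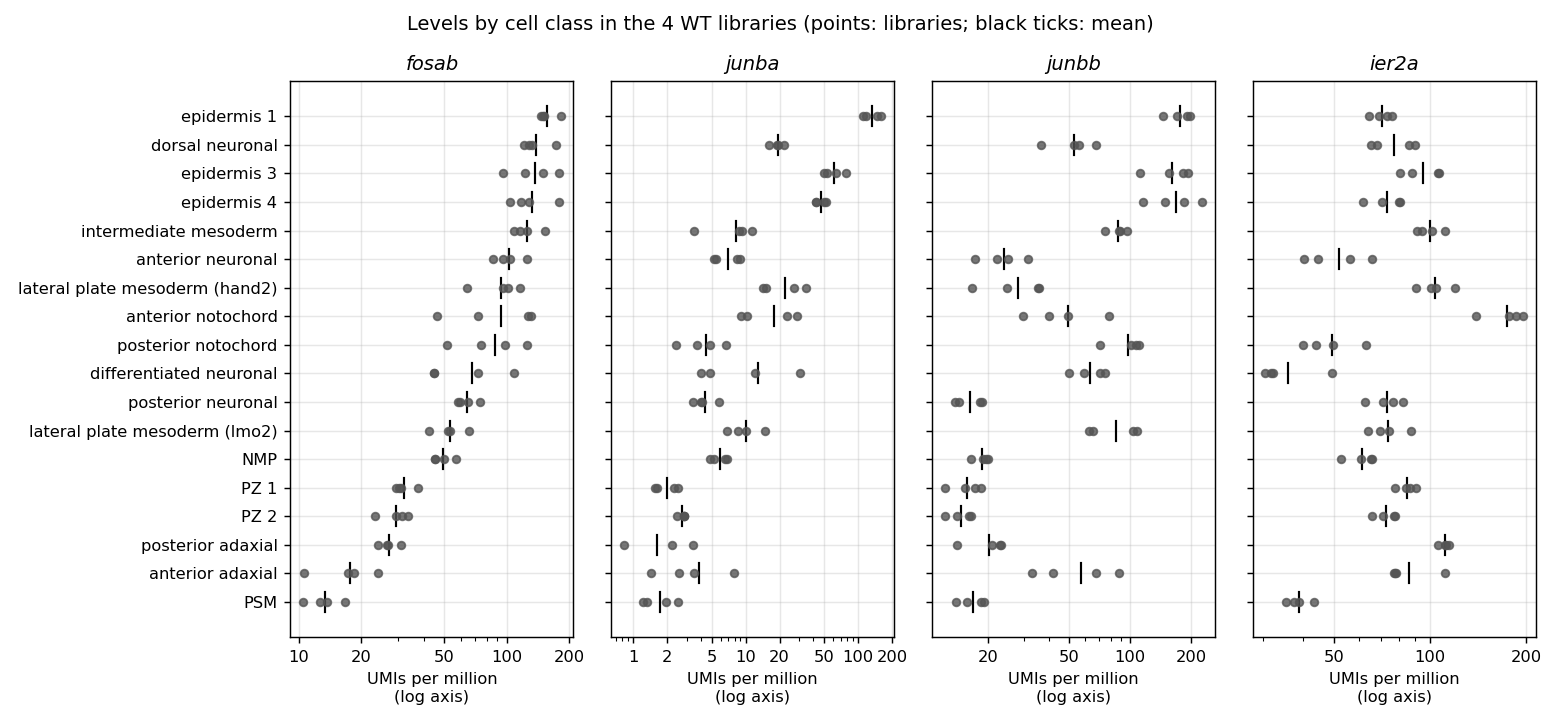
Level of fosab, junba, junbb and ier2a in the 18 classes of WT tails, in CPM on a log axis, ordered by the mean of fosab; points are the 4 libraries and black ticks their mean. junba drops from 133 CPM in epidermis 1 to 1.63 CPM in posterior adaxial cells, while ier2a spans 174 CPM in anterior notochord to 35.9 CPM in differentiated neuronal cells.

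Free RNA in droplets can set a floor under such levels. Markers of other classes, measured in a class taken to lack them, stood at a median of 11.8%, 19.5%, 10.8% and 27.5% of their all-cell level in DMH1, SU5402, notum-1 and WT (17.1% to 49.5% over WT classes). This marker level is called the level of free RNA here, but it was not measured in empty droplets. Doublets, mixed classes or true expression of a marker could add to it, and their part was not tested. junba was at or under that level in 8 of 18 WT classes, egr1 in 4, fosl1a in 3, fosab in 2, junbb in 1, and ier2a and atf3 in 0. For fosab these were PSM (19.1% of its all-cell level against 20.8% for the markers) and anterior adaxial cells (24.6% against 28.1%). The junba levels in those 8 classes (PZ 1, PZ 2, PSM, both adaxial classes, posterior neuronal, posterior notochord and intermediate mesoderm) are read as background. The part of free RNA in the differences between groups was not tested.

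Over the 18 WT classes, log2 levels of junba went most closely with fosl1a (Pearson r = 0.867), atf3 (0.825), fosab (0.798) and junbb (0.796), whereas r was 0.0803 for ier2a with junbb and -0.0559 for egr1 with fosab. These points share the same 4 libraries. Of the 18, 8 for junba, 4 for egr1, 3 for fosl1a, 2 for fosab and 1 for junbb were at or under the level of free RNA. The part of free RNA in r was not tested, and the values are given as a description.

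Within classes, 90 of the 126 pairs of a member and a class passed the filter on low counts: all 18 classes for fosab, junbb and ier2a, 15 for atf3, 13 for junba and 4 each for fosl1a and egr1. Under DMH1, 42 of 90 pairs were called, 8 higher and 34 lower, where 37.2% of all gene and class pairs were called. Under SU5402 it was 56 of 90, 4 higher and 52 lower, where 38.5% were called, and under notum-1 36 of 90, 0 higher and 36 lower, where 28.1% were called. By class, the shares of all genes called ran from 29.4% to 45.1%, 30% to 45% and 18.3% to 36.1%. Pairs that passed the filter only through a group where the gene was high had to differ, so the counts for fosl1a, egr1, junba and atf3 are descriptions.

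**Figure D3:**
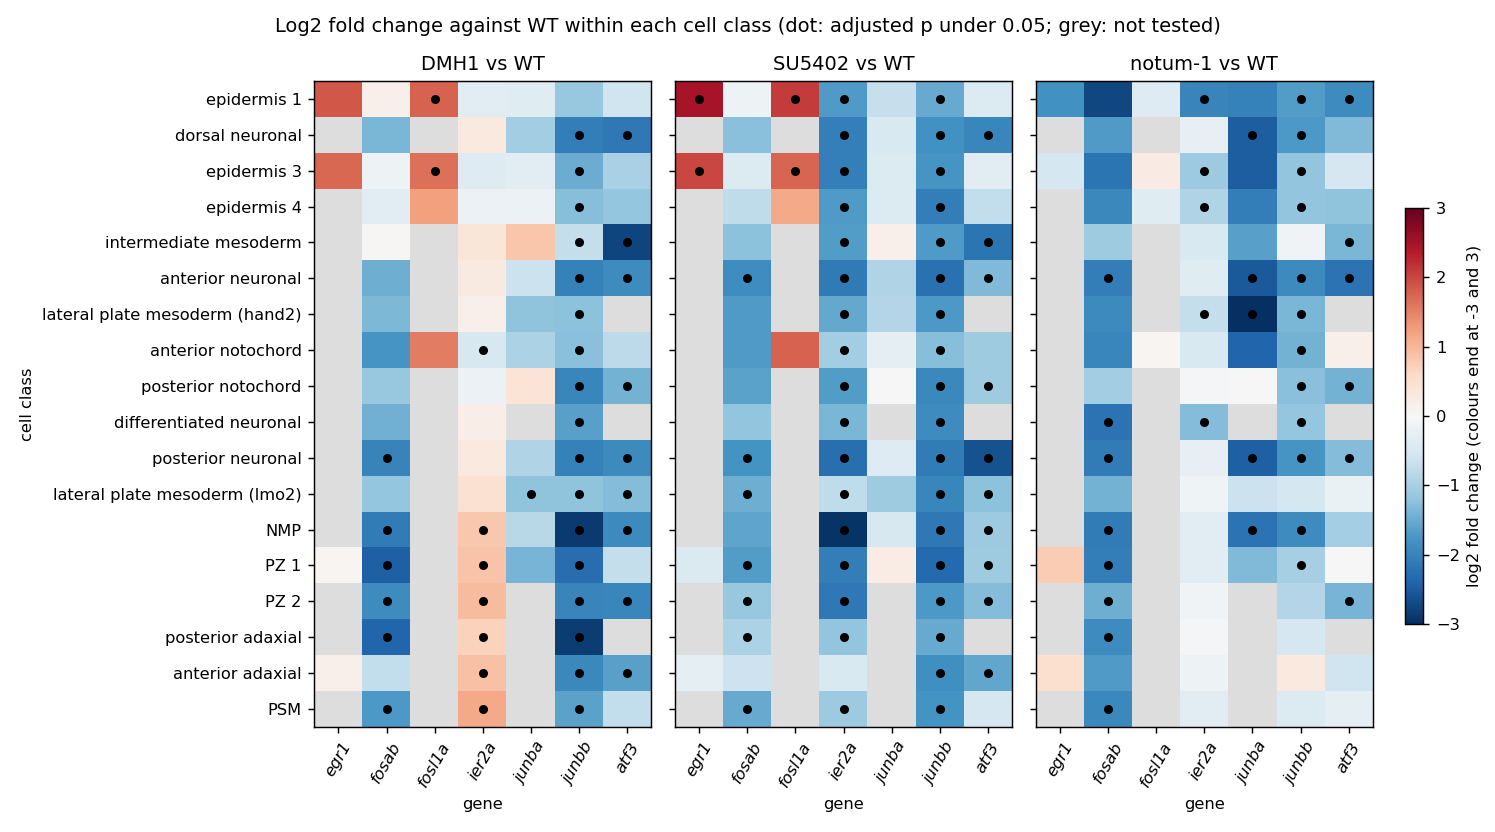
Log2 fold change of each gene (columns) in each of the 18 classes (rows) for DMH1, SU5402 and notum-1 against WT, 1 panel each; a dot marks an adjusted p under 0.05 by edgeR, grey a pair that was not tested, and colours end at -3 and 3. junbb is blue with a dot in 17, 18 and 12 classes of the panels, and ier2a is blue with a dot in 17 classes under SU5402 but red with a dot in 6 classes under DMH1.

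junbb was lower in 17 of 18 classes under DMH1, in 18 of 18 under SU5402 and in 12 of 18 under notum-1; of these calls 14, 17 and 7 held with each library of the compared groups left out in turn. Without SU5402 replicates 1 and 2 the counts were 18, 17 and 13. That fit was chosen after seeing the data and has no share over all genes beside it, so these counts are descriptions. The 18 classes include 1 where the WT level of junbb was at or under that of free RNA, and it was not taken out. Markers of other classes also stood at a lower share of their all-cell level in each treated group than in WT. The WT mean of junbb was 18.6 CPM in NMP, described next, beside 52.6 CPM in all cells. The part of free RNA in these falls was not tested. The NMP class, a name in common use for neuromesodermal progenitors, had 3.56, 1.82, 1.33 and 3.93 CPM in DMH1, 4.40, 2.88, 3.98 and 6.46 CPM in SU5402 libraries and 4.20, 3.33, 2.95 and 4.30 CPM in notum-1, against 19.9, 18.8, 19.4 and 16.5 CPM in WT. The treated libraries were far below WT, with edgeR log2 fold changes of -2.87 (SE 0.28, adjusted p = 2.12e-07), -2.15 (SE 0.27, adjusted p = 3.56e-06) and -1.88 (SE 0.27, adjusted p = 4.94e-05). In epidermis 3, where junbb is abundant, it had 56.7, 42.8, 55.4 and 70.5 CPM in DMH1, 20.4, 23.2, 51.9 and 79.0 CPM in SU5402 libraries and 56.1, 59.6, 46.6 and 39.4 CPM in notum-1, against 192, 155, 181 and 112 CPM in WT. All treated libraries again lay below WT, with edgeR log2 fold changes of -1.48 (adjusted p = 0.00195), -1.78 (adjusted p = 0.000596) and -1.19 (adjusted p = 0.0142).

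In PZ 1, PZ 2, PSM, NMP and posterior adaxial cells, ier2a rose under DMH1 and fell under SU5402. Under DMH1 it rose in 6 classes, PZ 1, PZ 2, PSM, NMP and both adaxial classes, and fell in anterior notochord; 4 of these 7 calls, in PZ 1, PZ 2, PSM and anterior adaxial cells, held with each library left out. The NMP call was lost without DMH0, DMH3 or DJ2, the posterior adaxial call without DMH3, and the notochord call without any 1 of 6 libraries. Under SU5402 it fell in 17 of 18 classes (15 of them with each library left out, and 16 of 18 without replicates 1 and 2). For the last count no share over all genes is at hand. In PZ 1 the levels were 169, 150, 188 and 138 CPM in DMH1 and 33.8, 34.3, 19.3 and 12.2 CPM in SU5402, against 90.4, 84.1, 86.3 and 77.5 CPM in WT. DMH1 libraries were all above WT and SU5402 libraries all below, with edgeR log2 fold changes of 0.87 (SE 0.22, adjusted p = 0.00351) and -2.06 (SE 0.24, adjusted p = 2.92e-06). In PSM the levels were 116, 68.8, 85.4 and 70.4 CPM in DMH1, against 38.9, 37.5, 43.2 and 35.3 CPM in WT, so that DMH1 was higher by 1.13 on the log2 scale (SE 0.24, adjusted p = 0.000825 by edgeR). The largest fall under SU5402 was in the NMP class, with 13.2, 18.9, 7.22 and 3.44 CPM in SU5402, against 60.9, 52.6, 65.3 and 65.5 CPM in WT (log2 fold change -2.94, SE 0.32, adjusted p = 2.27e-06 by edgeR).

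The class without a call under SU5402 was anterior adaxial, with 101, 74.0, 76.2 and 39.5 CPM in SU5402, against 78.2, 77.4, 111 and 77.3 CPM in WT. These libraries overlapped, and the log2 fold change was -0.46 (SE 0.20, adjusted p = 0.0839 by edgeR). Under notum-1 ier2a fell in 5 of 18 classes: epidermis 1, 3 and 4, differentiated neuronal cells and the hand2 class, of which the 3 epidermal calls held with each library left out. The neuronal call was lost without WNT_DJ1, and the hand2 call without WNT_DJ2, WNT_MG2, DJ1, DJ2 or MG1. In epidermis 1 it had 18.7, 4.29, 16.6 and 12.5 CPM in notum-1, against 69.0, 73.4, 76.0 and 64.6 CPM in WT. The groups did not overlap, and the log2 fold change was -1.99 (SE 0.36, adjusted p = 0.000758 by edgeR).

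**Figure D4:**
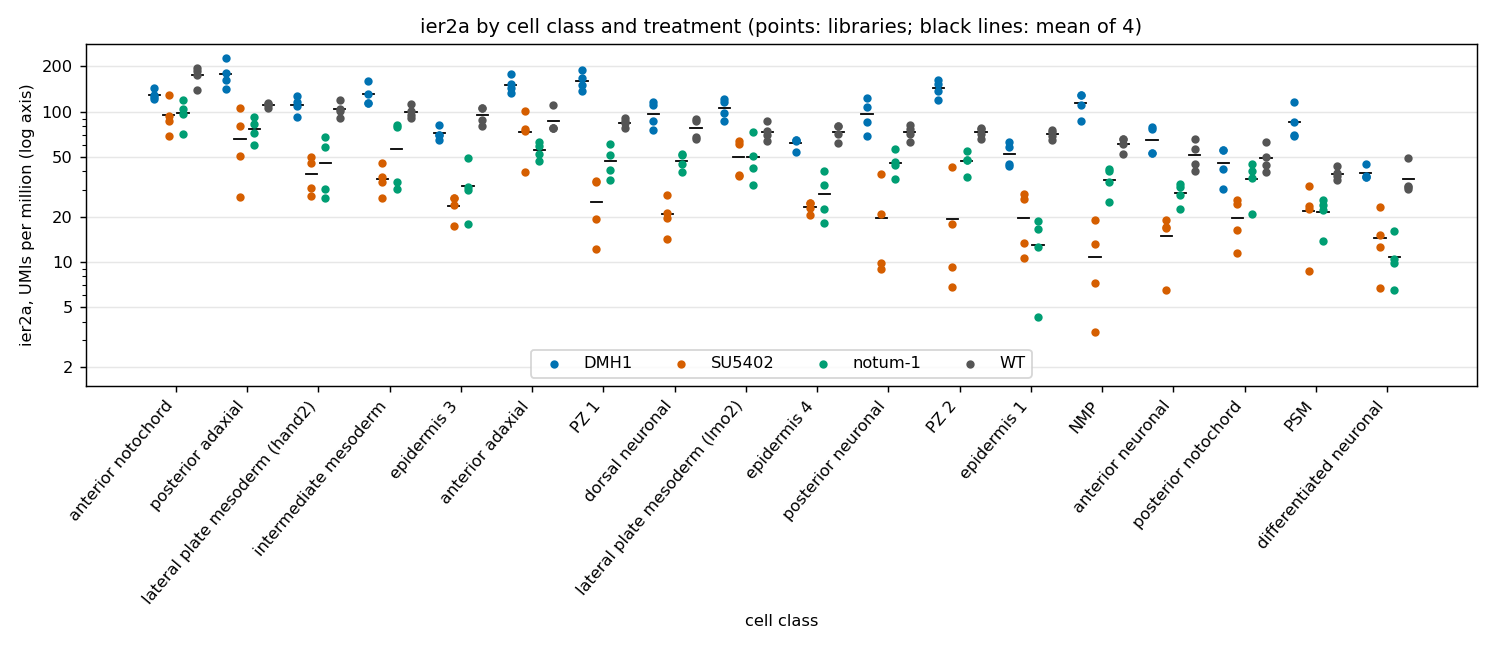
Level of ier2a in the 18 classes for DMH1, SU5402, notum-1 and WT, in CPM on a log axis; classes run by their WT mean, points are libraries and black lines the mean of 4. In PZ 1 the DMH1 libraries (138 to 188 CPM) lie above the WT libraries (77.5 to 90.4 CPM) and the SU5402 libraries (12.2 to 34.3 CPM) below; in anterior adaxial cells SU5402 and WT overlap.

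fosab fell in 6 of 18 classes under DMH1, 7 under SU5402 and 8 under notum-1. The DMH1 classes were posterior adaxial, PZ 1, PZ 2, PSM, posterior neuronal and NMP. In PSM the WT level was at or under that of markers of other classes, which stood at a median of 11.8% in DMH1 and 27.5% in WT. PSM was also among the classes called under SU5402 and notum-1. It is not read as a fall of fosab under any treatment, although its DMH1 and notum-1 calls held with each library left out. In posterior adaxial cells it had 3.61, 6.46, 6.52 and 4.54 CPM in DMH1 and 10.3, 3.27, 3.50 and 2.63 CPM in notum-1, against 26.6, 24.0, 26.8 and 30.9 CPM in WT. Both groups lay wholly below WT, with edgeR log2 fold changes of -2.37 (SE 0.38, adjusted p = 3.07e-05) and -1.89 (SE 0.38, adjusted p = 0.00055). Epidermis 1 had 200, 131, 164 and 163 CPM in DMH1, 2.66, 1.75, 254 and 244 CPM in SU5402 libraries and 36.9, 5.0, 15.5 and 3.75 CPM in notum-1, against 145, 181, 150 and 150 CPM in WT, and none of the 3 edgeR comparisons was called. DMH1 overlapped WT there, and SU5402 replicates 1 and 2 lay far below and replicates 3 and 4 above it. Leaving out each library kept 4 of 6, 0 of 7 and 2 of 8 calls under DMH1, SU5402 and notum-1. Without SU5402 replicates 1 and 2 the counts became 12, 3 and 16 of 18. No share over all genes is at hand for that fit, which was chosen after seeing the data, so these counts are descriptions.

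fosl1a rose in epidermis 1 and epidermis 3 under DMH1 and SU5402. Epidermis 1 had 52.0, 41.8, 45.9 and 49.3 CPM in DMH1 and 12.0, 15.8, 109 and 87.2 CPM in SU5402, against 10.9, 20.2, 12.8 and 13.1 CPM in WT. DMH1 did not overlap WT, while SU5402 replicates 1 and 2 did. The edgeR log2 fold changes were 1.77 (SE 0.62, adjusted p = 0.0431) for DMH1, which was lost with any 1 of the 8 libraries left out (adjusted p = 0.0656 to 0.113), and 2.10 (SE 0.62, adjusted p = 0.018) for SU5402, which was lost without SU5402 replicate 3 (adjusted p = 0.067) or WT library DJ1 (0.0567). Without SU5402 replicates 1 and 2 both passed, at 1.76 (adjusted p = 6.53e-05) and 2.84 (adjusted p = 3.18e-06) with edgeR. In epidermis 3 the values were 1.66 (SE 0.51, adjusted p = 0.0185 by edgeR) and 1.75 (SE 0.52, adjusted p = 0.0154 by edgeR), the first lost without WT library DJ1 (adjusted p = 0.0546) and the second without SU5402 replicate 3 (0.0694). In epidermis 4 they were 1.23 (adjusted p = 0.0538 by edgeR) and 1.13 (adjusted p = 0.0858), and neither passed. egr1 was called under SU5402 in epidermis 1, with 0, 0, 16.7 and 15.1 CPM in SU5402, against 2.10, 2.45, 0.710 and 1.09 CPM in WT; 3 UMIs there were worth 3.99 CPM in replicate 1 and 1.75 CPM in replicate 2. The fitted log2 fold change of 2.47 (SE 0.81, adjusted p = 0.0258 by edgeR) was kept only without SU5402 replicate 1 or 2, being lost without each of the other 6 libraries (adjusted p = 0.0523 to 0.0995), and was 3.19 (adjusted p = 7.98e-06) without replicates 1 and 2. In epidermis 3 egr1 had 0, 0, 12.6 and 5.64 CPM in SU5402, against 1.04, 1.57, 2.23 and 0.883 CPM in WT, with 3 UMIs worth 4.71 and 2.24 CPM in replicates 1 and 2. That fitted log2 fold change of 2.01 (SE 0.74, adjusted p = 0.0362 by edgeR) was 0.91 (adjusted p = 0.405) without SU5402 replicate 3. The call was also lost without each of the WT libraries (adjusted p = 0.0562 to 0.0966). Over the 4 WT libraries egr1 had 15 UMIs in epidermis 1 and 11 in epidermis 3. Both pairs thus passed the low-count filter through treated libraries, and both calls are descriptions.

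junba and atf3 were called in fewer classes than junbb. junba fell under notum-1 in 5 of 13 tested classes: anterior, posterior and dorsal neuronal, NMP and the hand2 class. The hand2 call was lost without WNT_DJ2 (adjusted p = 0.0658 by edgeR) or WT library DJ2 (0.0664), and the posterior neuronal level is among those read as background. In dorsal neuronal cells it had 3.80, 1.76, 2.17 and 1.51 CPM in notum-1, against 19.5, 19.0, 22.0 and 16.3 CPM in WT. The groups did not overlap, and the log2 fold change of -2.46 (SE 0.67, adjusted p = 0.0124 by edgeR) held with each library left out. Under DMH1 junba was called in 1 of 13 classes (the lmo2 class of the lateral plate, a call lost without DMH2, DMH3, DMH4, DJ1, DJ2 or MG2). Under SU5402 edgeR called junba in 0 of 13 classes, with 1 at an unadjusted p under 0.05. In epidermis 1, where it is most abundant, junba had 132, 86.5, 89.8 and 83.2 CPM in DMH1, 5.32, 5.25, 151 and 132 CPM in SU5402 libraries and 51.5, 8.10, 23.6 and 1.25 CPM in notum-1, against 146, 160, 110 and 117 CPM in WT. Only notum-1 lay wholly below WT there, and no comparison was called. With SU5402 replicates 1 and 2 left out, notum-1 calls of junba numbered 12 of 16 tested classes. This count has no share over all genes beside it and is a description.

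atf3 fell in 9 of 15 classes under DMH1, 10 under SU5402 and 6 under notum-1, of which 7, 3 and 1 held with each library left out. Under DMH1 and SU5402 its lowest p was in intermediate mesoderm, with 2.83, 2.91, 2.85 and 2.52 CPM in DMH1, 2.07, 3.97, 5.77 and 3.76 CPM in SU5402 libraries and 6.71, 2.56, 9.32 and 3.57 CPM in notum-1, against 22.7, 13.2, 21.8 and 17.3 CPM in WT. Each treated library lay below each WT library, and the edgeR log2 fold changes were -2.75 (SE 0.33, adjusted p = 1.65e-06), -2.19 (SE 0.34, adjusted p = 2.39e-05) and -1.37 (SE 0.37, adjusted p = 0.0117). The notum-1 call was lost without WNT_DJ2 (-1.11, adjusted p = 0.0516 by edgeR). This class held 24 atf3 UMIs over the DMH1 libraries and 26 over the SU5402 libraries, against 107 over the WT libraries. The pair thus passed the low-count filter through WT, where atf3 was high, and its calls are descriptions.

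Whether a class responded unlike the rest of the tail was tested as the difference between its log2 fold change and that of all other cells. Under DMH1 31 of 126 pairs were called, 9 higher and 22 lower, where 4.05% of all gene and class pairs were; without scaling the split was 4 and 24. Of the 126 pairs, 36 had failed the low-count filter within the class and entered through the other cells. Among those 36, fosl1a in the hand2 class was called, 1 time each under DMH1 and SU5402, and is not read as a result. Under SU5402 it was 15 (7 higher, 8 lower, where 1.5% were), and under notum-1 7 (5 higher, 2 lower, where 3.63% were; 2 and 5 without scaling). The SU5402 count was 7 without SU5402 replicate 3 or replicate 4 and 9 without WT library DJ1 or MG1; the notum-1 count was 11 without WNT_DJ1, 4 without WT library DJ1 or MG2 and 3 without DJ2.

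Under DMH1 fosab differed in 12 of 18 classes. PSM is among them but is not read as a result, its WT level being at or under the markers. The fosab response was below that of other cells in 9, PSM included, and above it in epidermis 1 and 3 and intermediate mesoderm. Its response was below that of other cells by -1.86 in PZ 1 (SE 0.18, adjusted p = 7.98e-07 by edgeR), -1.74 in posterior adaxial (SE 0.29, adjusted p = 5.59e-06), -1.55 in NMP (SE 0.17, adjusted p = 1.41e-05) and -1.42 in posterior neuronal cells (SE 0.105, adjusted p = 2.1e-10), each held in 8 of 8 leave-outs. In epidermis 1 it was above by 1.05 (SE 0.25, adjusted p = 0.0205 by edgeR), a call lost without WT library DJ1 (adjusted p = 0.0583). The fosab calls in intermediate mesoderm, epidermis 3 and differentiated neuronal cells held in only 1, 2 and 3 of 8 leave-outs. That in PZ 2 held in 7 of 8. junbb differed likewise in NMP, by -1.61 under DMH1 (SE 0.21, adjusted p = 1.92e-06 by edgeR). In intermediate mesoderm it was above other cells by 0.73 under DMH1 (adjusted p = 0.00233 by edgeR) and 1.01 under notum-1 (adjusted p = 5e-05). Mean fosab levels in DMH1 were 6.01 CPM in PZ 1 and 5.28 CPM in posterior adaxial cells, beside 48.8 CPM in all cells. Markers of other classes stood at a median of 11.8% of their all-cell level in DMH1 and 27.5% in WT. fosab and junbb were each at or under the marker level in 0 of 18 DMH1 classes. The part of free RNA in these differences of response was not tested.

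For ier2a under SU5402 the anterior adaxial response stood above that of other cells by 1.27 (SE 0.16, adjusted p = 6.69e-08 by edgeR) and that of anterior notochord by 0.89 (SE 0.18, adjusted p = 0.00421), whereas NMP stood below by -1.45 (SE 0.21, adjusted p = 0.0012); all 3 held in 8 of 8 leave-outs. Under DMH1, ier2a stood above other cells in PZ 1 by 0.54 (adjusted p = 2.98e-05 by edgeR) and below in anterior notochord by -0.79 (adjusted p = 0.00638). fosl1a under SU5402 stood above other cells by 1.23 in epidermis 1 (adjusted p = 0.00195 by edgeR), and atf3 under DMH1 below by -1.98 in intermediate mesoderm (adjusted p = 0.000102), both in 8 of 8 leave-outs. Within intermediate mesoderm atf3 had passed the low-count filter through WT, so its difference is a description.

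Other genes of the pathway were taken from 4 lists. Of 42 further immediate early genes tested, 8 rose and 10 fell under DMH1, 7 rose and 13 fell under SU5402, and 3 rose and 11 fell under notum-1, with medians of 0.04, -0.30 and -0.19; the shares of all genes called are those given above. The median between DMH1 and SU5402 was 0.30. The strongest by p were myca, a Myc proto-oncogene, at -1.92 under DMH1 (adjusted p = 9.42e-06 by edgeR) and -2.08 under SU5402 (adjusted p = 4.44e-06), and csrnp1a at -1.45 and csrnp1b at 1.86 under notum-1 (adjusted p = 0.000137 and 0.000218). jun, the founding member of the AP-1 family, fell by 1.84 under DMH1 (adjusted p = 0.000451 by edgeR). dusp5, a phosphatase that acts on ERK, fell by 1.53 under SU5402 (adjusted p = 3.82e-05 by edgeR) and by 1.09 under notum-1 (adjusted p = 0.0011).

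For the next 2 lists, upstream factors and heat shock genes, the shares of all genes called were 42.4%, 42.6% and 38% under DMH1, SU5402 and notum-1. The upstream list shares srfa and srfb with the further immediate early genes. Of 17 kinases and factors that act upstream, 6 rose and 1 fell under DMH1, 6 rose and 0 fell under SU5402, and 6 rose and 4 fell under notum-1, with medians of 0.56, 0.44 and 0.42. Examples were mrtfab, a coactivator of the serum response factor, at 1.07 under DMH1 (adjusted p = 9.64e-06 by edgeR) and 0.75 under SU5402 (adjusted p = 0.000173), and map2k1, which encodes the ERK kinase MEK1, at -1.02 under notum-1 (adjusted p = 0.000531). Of 20 heat shock genes, 3 rose and 11 fell under DMH1, 1 rose and 13 fell under SU5402, and 5 rose and 3 fell under notum-1, with medians of -0.71, -0.78 and 0.28. hspe1, a mitochondrial chaperonin, fell by 1.67 (adjusted p = 1.57e-07 by edgeR), 1.73 (adjusted p = 4.52e-08) and 0.53 (adjusted p = 0.000757) under DMH1, SU5402 and notum-1. Near-identical hsp70 copies are not given singly. Their sum averaged 25.1, 25.7 and 869 CPM in DMH1, SU5402 and notum-1, against 1484 CPM in WT.

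The FGF list of 16 genes holds feedback and target genes, but also FGF ligands and a receptor. Its counts are therefore not a pure readout of the pathway that SU5402 blocks. Of the 16 genes, 6 rose and 4 fell under DMH1, 2 rose and 5 fell under SU5402, and 2 rose and 5 fell under notum-1. The medians were 0.23, -0.21 and -0.13, where 42.4%, 42.6% and 38% of all genes were called. Between DMH1 and SU5402, 6 were higher and 0 lower (median 0.28), where 1.19% of all genes were called. As given above, that share varied widely between fits. The 6 included the feedback inhibitors spry4 at 1.04 (adjusted p = 0.000201 by edgeR), dusp6 at 1.46 (adjusted p = 0.00233) and spry1 at 1.82 (adjusted p = 0.00292). dusp6, a phosphatase that switches ERK off, fell by 1.08 under SU5402 (adjusted p = 0.000717 by edgeR), and etv5a, an ETS factor, rose by 0.90 (adjusted p = 0.000148).

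Genes with the pattern most like each member were sought among genes averaging at least 10 CPM, by Pearson r of log2 levels. Over the 16 libraries (6271 genes) these were dusp6 (r = 0.912), hoxb7a (0.852) and emx3 (0.831) for ier2a; rbm28 (0.941), her15.1 (0.906) and jdp2b (0.895) for fosab; rps18 (0.961) for fosl1a, rpl14 (0.909) for egr1, rbm19 (0.911) for junba, hist2h2l (0.974) for junbb and zgc:154164 (0.908) for atf3. Over the 18 WT classes (6252 genes) they were gmfb (0.943) for junba, myl12.1 (0.936) for atf3, mtpn (0.931) for fosl1a, papola (0.920) for egr1, sh3bgrl3 (0.913) for fosab, si:dkey-16l2.16 (0.901) for junbb and prkab1b (0.794) for ier2a. The points of the first set share treatment groups and depth, those of the second libraries. For junba, egr1, fosl1a, fosab and junbb the second set includes classes at or under the level of free RNA.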

How the data were processed

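Droplet 3' single-cell libraries were made from pooled tails. The authors deposited UMI counts per gene and cell, and a cell table with library, treatment, class and the percent of mitochondrial UMIs; Cell Ranger and GRCz11 are named per the submitters' processing notes. The sources used here give no clustering, cell filtering or doublet step. The lowest gene number per cell was 1001 to 1016 in DMH1, 801 to 1501 in SU5402, 501 to 503 in notum-1 and 801 to 1202 in WT. Cell limits on genes and mitochondrial share thus differed between groups as well as between libraries. The 4 SU5402 libraries matched their labelled replicates by name and the other 12 their group only; 0 columns of samples went unused.

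The deposited counts were summed per library, and per library and class (18 classes with at least 30 cells in every library). edgeR 4.0.16 (limma 3.58.1, R 4.3.3) fitted quasi-likelihood models to all 16 libraries in 4 groups, with filterByExpr, TMM factors and robust dispersion; a call is a Benjamini-Hochberg adjusted p under 0.05 over all genes tested, two-sided. Differences of response came from an interaction term with library as a block. Class levels in WT are given without a test, since the authors' classes came from the same cells. The study calls its libraries biological replicates; the labels do not say whether pools came from separate clutches, so p-values measure spread between libraries, which may be technical. Replicate libraries differed by more than sampling noise (lowest chi-square per degree of freedom 18.3). Fits were also run on simulated counts with the same dispersion for all genes, no split of the SU5402 replicates and DMH1 against WT only. That simulation does not cover the spread of genes such as fosab, and nothing is drawn from it. Tables and figures used Python 3.11.15, numpy 2.4.6, pandas 2.3.3, scipy 1.17.1 and matplotlib 3.10.9.

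The 7 genes are always named; of other lists up to 4 genes per comparison with the lowest adjusted p could be named, and the 3 genes most alike by correlation. The members and lists were chosen with earlier results of these data known. Alternatives were DESeq2 1.42.0, no scaling, no low-count filter, 2 groups only, uniform cell limits (at least 1500 genes, at most 3% mitochondrial UMIs), thinning, equal class weights, libraries left out, and a block by library name ending. Equal class weights used an exact permutation test on the 7 genes, with an unadjusted p. Intervals and floors cover counting error only.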

Additional observations from a re-analysis of the deposited data

Results flagged for a closer look

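In all cells, ier2a in WT library MG2, at 68.6 CPM, lay apart from the other 3 WT libraries at 77.1 to 78.1 CPM, the gap being 0.889 of the range; 28 groups of 4 libraries were examined, and chance marks about 1 in 20.

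For 14 pairs of gene and treatment, the class with the lowest p differed in its response from all other cells in the interaction test of edgeR, given here as the log2 difference of the class from other cells. Under DMH1 it was -1.98 for atf3 in intermediate mesoderm, -1.42 for fosab in posterior neuronal cells, -2.03 for fosl1a in the hand2 class, 0.54 for ier2a in PZ 1, -0.89 for junba in dorsal neuronal cells and -1.61 for junbb in NMP. Under SU5402 it was -1.78 for atf3 in posterior neuronal cells, 2.19 for egr1 in epidermis 1, -0.72 for fosab in posterior neuronal cells, 1.23 for fosl1a in epidermis 1 and 1.27 for ier2a in anterior adaxial cells. Under notum-1 it was 0.51 for ier2a in posterior adaxial cells, 2.16 for junba in posterior notochord and 1.01 for junbb in intermediate mesoderm. The fosl1a difference in the hand2 class was called in 3 of 8 leave-outs, and the gene had failed the low-count filter within that class, with means of 2.48 CPM in DMH1 and 3.39 CPM in WT, so it is not read as a result. The difference for junba in posterior notochord was called in 2 of 8 leave-outs and rested on means of 3.17 CPM in notum-1 and 4.41 CPM in WT. That WT level is among those read as background, so the difference is not read as a result. For egr1 in epidermis 1 the difference was called in 4 of 8 leave-outs, with 15 UMIs of egr1 there in WT, and is a description. That of atf3 in posterior neuronal cells under SU5402 was called in 4 of 8 leave-outs, with means of 0.879 CPM in SU5402 and 5.45 CPM in WT. For junba in dorsal neuronal cells under DMH1 it was 5 of 8, and for ier2a in posterior adaxial cells under notum-1 7 of 8. The remaining differences were called in 8 of 8. Among them, atf3 in intermediate mesoderm under DMH1 had passed the low-count filter within that class through WT, so its difference is a description.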

How the results depend on the processing

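In all cells, junbb under each treatment and ier2a under SU5402 and for DMH1 against SU5402 kept direction and call under every alternative run. With equal class weights this means an unadjusted p under 0.05. Of the 7 genes, 6 were called under DMH1 with only the 2 groups compared, where 9912 of all genes were called, against 6953 in the main fit. With every class weighted alike, 5 had an unadjusted p under 0.05 in an exact permutation test (smallest possible p 0.0286). These 5 are not calls over all genes and cannot be set beside the edgeR counts. Under notum-1 the count of 2 became 5 with DESeq2, no scaling or 2 groups only, where 6828, 7531 and 5879 genes were called. It was also 5 without SU5402 replicates 1 and 2 (7372 genes) and with the replicate block (5601), against 6239 genes in the main fit. With only the libraries named DJ or MG it was 1, where 1584 and 1791 genes were called. With equal class weights 5 genes had an unadjusted p under 0.05 in the permutation test. Within classes, DMH1 gave 66 calls with only 2 groups, and notum-1 65 without scaling and 55 without SU5402 replicates 1 and 2. No share over all genes is at hand for counts within classes or of differences of response under the alternatives. Leaving out each library gave 1 to 2, 2 to 3 and 1 to 5 members called in all cells under DMH1, SU5402 and notum-1 and 1 to 2 for DMH1 against SU5402; 33 to 53, 41 to 56 and 24 to 48 calls within classes; and 21 to 27, 7 to 18 and 3 to 11 differences of response. Without SU5402 replicates 1 and 2, an alternative chosen after seeing the data, the SU5402 differences numbered 20. The block by name ending (DJ1, DJ2, MG1, MG2) is not a pairing: same-named libraries of notum-1 and WT deviated with r = 0.398, 0.098, -0.238 and 0.419 over 6275 genes.

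Direction turned for values that were not called. For egr1 under notum-1 it turned to -0.15 without scaling, -0.038 after thinning, -0.60 with equal class weights and -0.27 with DJ libraries; for junba under SU5402 to 0.13 without replicates 1 and 2. Leave-outs ran from -0.17 to 0.72 (egr1, SU5402), -0.28 to 0.51 (egr1, notum-1) and -0.10 to 0.83 (egr1, DMH1 against SU5402). For DMH1 against SU5402, uniform cell limits gave -0.76 (egr1), -0.0046 (fosab), -0.23 (junba), -0.00075 (junbb) and -0.12 (atf3), removal of SU5402 replicates 1 and 2 gave -0.50 (egr1), -0.34 (fosab), -0.33 (fosl1a), -0.34 (junba) and -0.26 (atf3), and equal class weights -0.019 (atf3). The cause was not tested.

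Uniform cell limits left 33555 cells, 44 of them in SU5402 replicate 1, and were not run within classes; alternatives for class against other cells were not run, as no test is given. egr1 and fosl1a, at a few CPM, are limited by depth in most classes.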
